A study of Macaca fascicularis with 6 samples.

Results

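The chitinase genes CHIT1 and CHI3L1 and the macrophage lipid genes FABP4, FABP5, PPARG, SCD, LPL, APOE, PLIN2 and ABCG1 were followed through single-cell RNA sequencing of lung tissue from cynomolgus monkeys (Macaca fascicularis). They were picked by symbol, and 8 of the 10 symbols had an entry among the 28623 genes counted, of which 21095 carry a symbol. FABP5 and PLIN2 had no entry under those symbols and were not analysed here. The 6 monkeys were males aged 3 to 5 years, and each gave 1 droplet library. The asthma group (3 monkeys, numbered 8, 10 and 11) received Ascaris suum antigen (1 mg/mL) mixed with adjuvant by injection and was then challenged intranasally with 10 mg/mL. The control group (3 monkeys, numbered 1, 2 and 3) received saline, with no adjuvant named, so antigen and adjuvant cannot be told apart. The study reports that airway tests with methacholine came before lung collection. Lungs were taken in week 11, so the asthma libraries describe one parasite-antigen model at one time point, with 1 tissue suspension per animal.

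Chitinases belong to a family of glycosyl hydrolases that recognise chitin, the polymer in the coats of fungi, insects and nematodes. CHIT1 encodes chitotriosidase, the active chitinase that macrophages secrete, whereas CHI3L1 encodes YKL-40, which binds chitin without cleaving it. Alveolar macrophages clear surfactant and therefore handle large amounts of lipid, and PPARG is the nuclear receptor that sets this programme after induction by GM-CSF. FABP4 carries fatty acids inside the cell and is a classical PPARG target, SCD places the double bond in stearate and palmitate, LPL releases fatty acids from lipoprotein triglyceride, APOE is the apolipoprotein that macrophages secrete, and ABCG1 passes cholesterol to high-density lipoprotein.

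The libraries held 40556102, 33210436 and 32240293 unique molecular identifiers (UMIs, one per captured RNA molecule) in controls 1, 2 and 3, and 41184329, 41489879 and 29014556 in asthma 8, 10 and 11. Of 35133 barcodes, 24235 cells passed the filters on genes, UMIs and mitochondrial RNA, with a median of 3835 to 5048.5 UMIs per cell by library. The cells were grouped without the 10 genes themselves and named from markers, which gave 3459 macrophage-like cells (990, 294 and 370 in the controls, 553, 860 and 392 in the asthma libraries). All 10 macrophage markers were detected in the macrophage-like cells of each library, with a summed level of 7320 to 12914 counts per 1000000 (CPM, the UMIs of a gene scaled to the summed UMIs of the class in that library). Among them 1898 cells were alveolar macrophage-like (led by MARCO, CCL18 and related markers), 560 were interstitial macrophage-like (FOLR2, LYVE1, F13A1), and 2 further populations are named here by a leading gene, the IDO1 sub-cluster (427 cells) and the CCL17 sub-cluster (546 cells). Another 1682 cells had no name and 1591 carried markers of more than 1 class.

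Some libraries stood apart within the macrophages. Control 1 gave 327 of the 338 cells of 1 alveolar sub-cluster, and asthma 10 gave 292 of the 309 cells of another, led by the interferon-response genes IFI27, IFIT1 and MX1. The makeup of the macrophage-like cells differed as well. The alveolar type made up 35.0% of them in asthma 10 and 40.3% in asthma 11, against 58.6% to 69.6% in asthma 8 and the controls, and the interstitial type made up 32.3% and 26.5% against 5.45% to 12.7%. Antibody transcripts were high in the alveolar cells of controls 1 and 2, where 6 plasma cell markers summed to 525 and 2718 CPM (mostly IGKC) against 24.1 to 34.6 CPM in the other libraries. Pairs of libraries shared at most 0.272% of the barcodes of the smaller one.

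CHIT1 and CHI3L1 were first placed among the cell classes (levels are CPM summed over the cells of a class in a library, mean ± SD over libraries, given as a description). CHIT1 reached 2827, 539 and 1565 CPM in the macrophage-like cells of controls 1, 2 and 3 and 1588, 537 and 2494 CPM in asthma 8, 10 and 11. The groups overlapped, and 1 library of each, control 2 and asthma 10, lay well below the others. The mean was 1592 ± 955 CPM (SD, n = 6), above the monocyte-like cells (63.9 ± 43.1 CPM) in 6 of 6 libraries. Monocyte-like and granulocyte-like cells (37.4 CPM) were not ordered beyond their spread, since the former were higher in 4 of 6 libraries. T and NK-like cells, which are not known to make chitotriosidase, held 10.5 ± 7.67 CPM, and that level is taken here as the background of free RNA. Granulocyte-like cells were shallower, with medians of 943 to 1073 UMIs per cell by library against 3246 to 4476 in T and NK-like cells. The part of free RNA in the granulocyte-like levels, here and below, was not tested.

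CHI3L1 had further sources beside macrophages. Its level in macrophage-like cells was 203 ± 69.2 CPM (118 to 307), higher in 6 of 6 libraries than in mesothelial-like cells, which line the lung surface and followed with 48.5 ± 35.5 CPM. Mesothelial-like cells were above granulocyte-like cells (27.6 CPM) in 5 of 6 libraries, so that the pair was not separated in each animal. Epithelial-like cells (18.9 CPM) and fibroblast and muscle-like cells (10.6 CPM) had means above the 1.23 CPM of T and NK-like cells.

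PPARG had the smallest SD relative to its mean of the 8 genes in macrophage-like cells, 291 ± 49.4 CPM (219 to 341), and the next class, endothelial-like cells, held 6.32 CPM and was lower in 6 of 6 libraries. FABP4, its target, had 1469 ± 967 CPM (734 to 3333) in macrophage-like cells. The epithelial-like cells came next at 37.1 ± 55.7 CPM, lower in 6 of 6 libraries, and their mean rested on asthma 10 with 147 CPM. They exceeded the granulocyte-like cells (31.8 CPM) in only 1 of 6 libraries, so the order of these classes depends on that library.

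SCD, the desaturase, averaged 524 ± 253 CPM in macrophage-like cells, with 458, 619 and 769 CPM in the controls and 480, 77.9 and 740 CPM in asthma 8, 10 and 11. The low value of asthma 10 was under the 103 CPM of its own epithelial-like cells, and macrophage-like cells were therefore higher in 5 of 6 libraries. Epithelial-like cells held 95.6 ± 35.7 CPM, the highest level outside macrophages among the classes with 6 libraries, whereas granulocyte-like cells held 15.1 CPM.

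LPL did not follow the macrophage pattern. The highest mean belonged to endothelial-like cells (159 ± 184 CPM), followed by fibroblast and muscle-like cells (103 ± 76.1 CPM) and macrophage-like cells (92.1 ± 63.8 CPM). None of these neighbours differed beyond the spread, since the first exceeded the second in 4 of 6 libraries and the second exceeded the third in 3 of 6. Monocyte-like cells (35.6 CPM) were below macrophage-like cells in 6 of 6 libraries.

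APOE was abundant in macrophage-like cells at 14544 ± 3336 CPM (11511 to 19986). Fibroblast and muscle-like cells also carried APOE, at 3829 ± 2287 CPM, lower in 6 of 6 libraries than macrophage-like cells and higher in 6 of 6 than granulocyte-like cells (259 CPM). T and NK-like cells held 86.8 ± 36.6 CPM, the level taken here for free RNA. ABCG1 was sparse, with 24.4 ± 5.39 CPM (16.1 to 31.1) in macrophage-like cells and 4.56 CPM in granulocyte-like cells, lower in 6 of 6 libraries. Differences in level between genes were not tested.

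**Figure D1:**
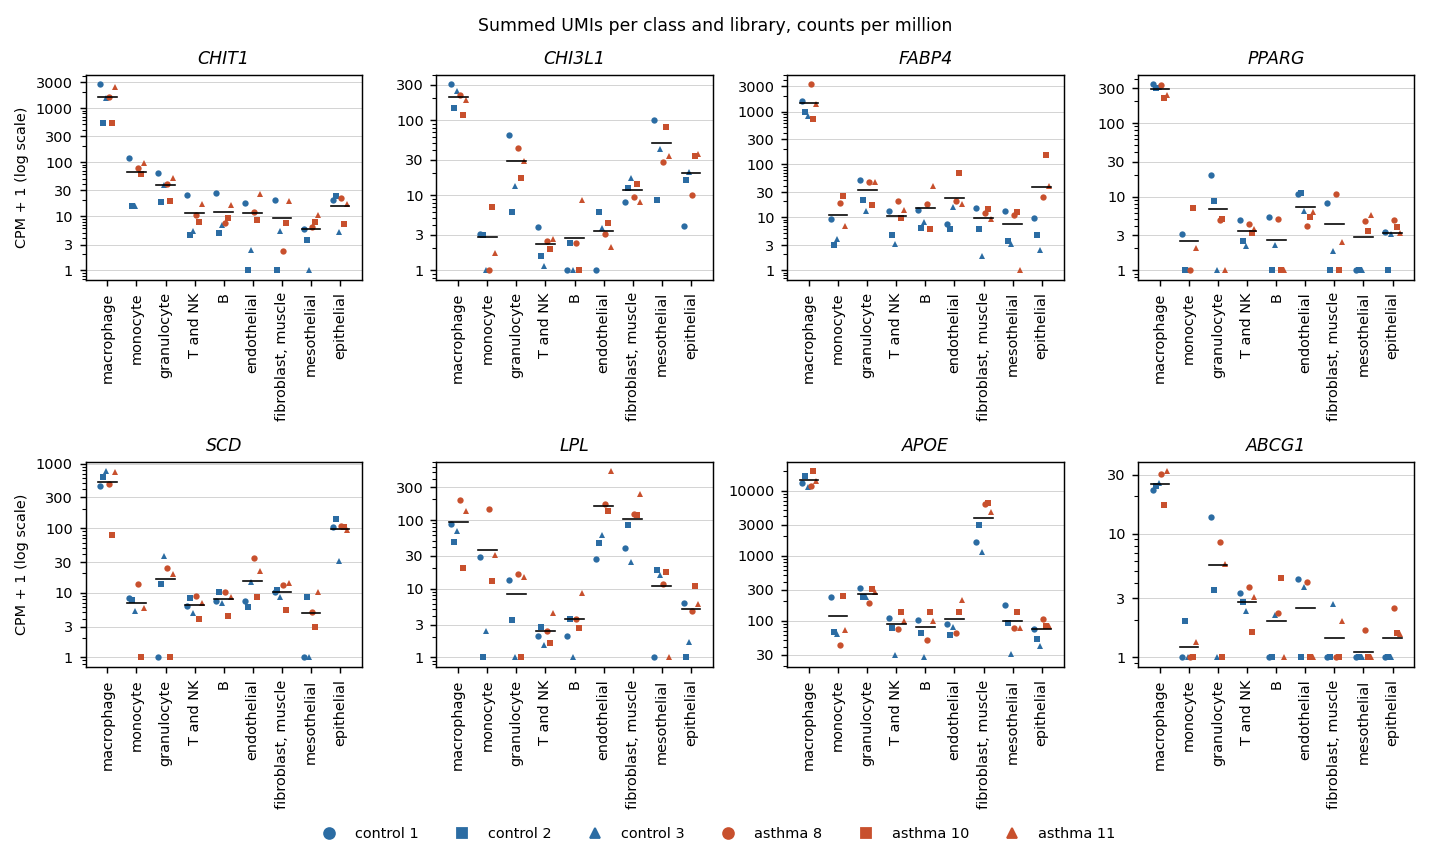
Level of each of the 8 genes in 9 of the 12 cell classes, as CPM + 1 on a log axis, with 1 point per library (control blue, asthma orange) and a black bar at the mean over libraries. CHIT1, FABP4, PPARG and ABCG1 stand highest in macrophage-like cells in all 6 libraries, APOE has a second class in fibroblast and muscle-like cells, and the endothelial-like mean of LPL (159 CPM) lies above its macrophage-like mean (92.1 CPM).

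The share of all UMIs of a gene that fell in macrophage-like cells gave the same separation of LPL from the other genes. It was 92.2 ± 4.83% for CHIT1, 91.6 ± 2.15% for PPARG, 91.1 ± 3.74% for FABP4, 88.8 ± 3.66% for APOE, 87.7 ± 3.59% for CHI3L1, 87.4 ± 6.69% for SCD and 85.4 ± 4.41% for ABCG1 (mean ± SD, n = 6). For LPL it was 50.5 ± 23.4%, between 19.2% and 76.9%. A further 24.9 ± 16.4% of LPL UMIs lay in cells without a name. Nearly all of these (3322 UMIs) belonged to 1 unnamed cluster of 1233 cells led by PLD4, CCL22 and FCER1A, where LPL reached 160, 247 and 25.5 CPM in controls 1, 2 and 3 and 353, 180 and 444 CPM in asthma 8, 10 and 11. This cluster was left without a cell type, so the class order of LPL does not include it.

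Detection per cell was compared after each cell was thinned to 2000 UMIs, because macrophage-like cells were deeper (median 14025 to 25500 UMIs by library) than T and NK-like cells (3246 to 4476 UMIs). The comparison kept 3410 of 3459 macrophage-like cells and 9253 of 10131 T and NK-like cells. CHIT1 was found in 37.8% of thinned macrophage-like cells against 2.20% of T and NK-like cells, and FABP4 in 37.8% against 2.02%. PPARG was found in 34.3% against 0.437%, SCD in 25.8% against 1.02%, CHI3L1 in 21.3% against 0.240% and LPL in 13% against 0.217%. APOE was found in 97.5% against 15.4%, the highest background of the 8 genes. ABCG1 was seen in 3.65% against 0.342%. Without thinning the macrophage shares were 55.4% for CHIT1, 51.8% for FABP4, 74.1% for PPARG, 50% for SCD, 52.2% for CHI3L1, 46.0% for LPL, 98.8% for APOE and 29.2% for ABCG1, and the T and NK shares were 3.81%, 3.48%, 0.896%, 2.18%, 0.447%, 0.507%, 26.3% and 0.703% in the same order.

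Within the macrophages, CHIT1, CHI3L1, FABP4, PPARG, SCD and ABCG1 were all higher in the alveolar than in the interstitial type in 6 of 6 libraries. The subtypes were named from genes that hold none of the 8. Some of these markers, such as MCEMP1 and CCL18, had profiles close to those of CHIT1 or PPARG over the classes. The differences are therefore a description and are not independent of the names. CHIT1 held 1939 ± 1104 CPM in alveolar cells and 121 ± 214 CPM in interstitial cells, where asthma 11 alone reached 554 CPM and the other 5 libraries lay between 2.1 and 65.1 CPM. The median of the 6 log2 ratios, computed on CPM + 10, was 5.47. CHI3L1 held 268 ± 77.6 CPM against 5.84 CPM, a median log2 ratio of 4.24, and was at 0 in the interstitial cells of controls 2 and 3.

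The lipid genes separated the subtypes to different degrees. FABP4 held 2047 ± 1169 CPM in alveolar and 58.9 ± 53.9 CPM in interstitial cells (median log2 ratio 5.05), and SCD held 726 ± 373 against 13.7 ± 16.2 CPM (median log2 ratio 5.05). PPARG held 376 ± 19.6 against 73.9 ± 17.5 CPM, a smaller median log2 ratio of 2.14. ABCG1 held 32.1 ± 8.58 against 6.65 CPM (median log2 ratio 1.38). The alveolar PPARG values of 406, 360 and 381 CPM in the controls and 388, 353 and 367 CPM in asthma 8, 10 and 11 had the smallest SD relative to their mean of the 8 genes. LPL was higher in alveolar cells in 5 of 6 libraries (106 ± 75.7 against 39.6 ± 62.5 CPM, median log2 ratio 1.56), with asthma 11 as the exception. APOE went the other way in 4 of 6 libraries, with 14842 ± 4660 CPM in alveolar and 19903 ± 4871 CPM in interstitial cells and a median log2 ratio of -0.37.

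The IDO1 sub-cluster carried CHIT1 at levels that were not ordered against the alveolar cells, and less FABP4, SCD and PPARG. CHIT1 there was 9216, 613 and 210 CPM in controls 1, 2 and 3 and 844, 813 and 3387 CPM in asthma 8, 10 and 11. Control 1 was thus far above the rest, and alveolar cells were higher in 4 of 6 libraries, with a median log2 ratio of 0.06. FABP4 (212 ± 163 CPM), SCD (132 ± 77.0 CPM) and PPARG (167 ± 29.2 CPM) were lower than in alveolar cells in 6 of 6 libraries, with median log2 ratios of alveolar over IDO1 sub-cluster of 3.18, 2.46 and 1.09. CHI3L1 (125 ± 65.1 CPM) was lower in 5 of 6 libraries, with a ratio of 1.04. LPL (67.3 ± 20.5 CPM) was split, higher in alveolar cells in 3 of 6 libraries (median log2 ratio 0.27), and APOE (16378 ± 2922 CPM) was higher in alveolar cells in only 1 of 6 (median log2 ratio -0.33). The CCL17 sub-cluster had little of either chitinase, 14.9 CPM of CHIT1 and 3.48 CPM of CHI3L1, and its APOE of 10503 ± 2938 CPM was below the alveolar level in 6 of 6 libraries.

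**Figure D2:**
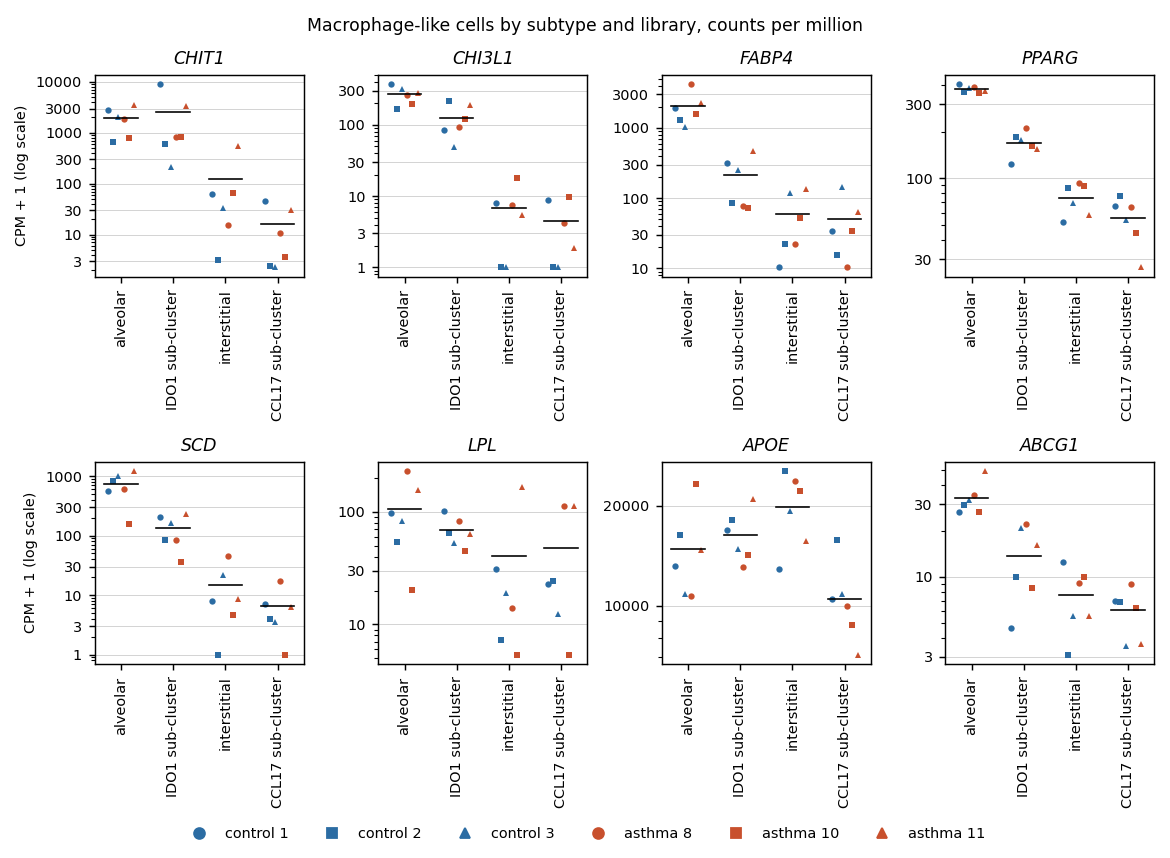
Level of each gene in 4 macrophage-like populations as CPM + 1 on a log axis, with 1 point per library (control blue, asthma orange) and a black bar at the mean. CHIT1 overlaps between alveolar cells and the IDO1 sub-cluster while FABP4, SCD and PPARG do not overlap between alveolar and interstitial cells, and the alveolar PPARG points lie between 353 and 406 CPM.

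The alveolar cells themselves were not uniform for CHIT1 and SCD. One sub-cluster of 351 cells, with SCD and CHIT1 among its leading genes although neither was used to form it, held 4907 CPM of CHIT1 and 1827 CPM of SCD over all libraries. Its CHIT1 level was 7897, 1267 and 4600 CPM in controls 1, 2 and 3 and 5470 and 3725 CPM in asthma 8 and 11, while asthma 10 had only 3 such cells. The largest alveolar sub-cluster, of 612 cells, held 1371 CPM of CHIT1 and 567 CPM of SCD. The sub-cluster that came from control 1 held 2188 and 273 CPM, and the interferon-gene sub-cluster that came from asthma 10 held 712 CPM of CHIT1, 148 CPM of SCD and 21.9 CPM of LPL. The last sub-cluster (288 cells, 193 of them in control 1) was lowest with 429 and 69.9 CPM. PPARG was 394 CPM in the largest of these sub-clusters, 342 CPM in the sub-cluster high in CHIT1 and 415 CPM in the last.

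Across single alveolar cells CHIT1 varied together with SCD and with CHI3L1. Over 1780 cells thinned to 10000 UMIs (118 shallower cells were left out), the median over 6 libraries of Spearman's rho within a library was 0.53 for CHIT1 with SCD (0.43 to 0.59) and 0.46 for CHIT1 with CHI3L1 (0.38 to 0.60). FABP4 with SCD had a median of 0.30, and CHIT1 with FABP4 had 0.21. PPARG had medians near 0, with -0.06 with CHIT1 (-0.20 to 0.20) and -0.04 with SCD. Cells of 1 library share its RNA and its animal, so these values describe the libraries and carry no p-value.

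Genes with the most similar profile were ranked by Pearson's r over 64 pairs of class and library. For CHIT1 these were MCEMP1 (r = 0.944), CCL18 (r = 0.930) and VSIG4 (r = 0.922). For PPARG they were the mannose receptor MRC1 (r = 0.951), the complement gene C1QC (r = 0.941) and CCL18 (r = 0.940). For CHI3L1 they were MMP19, the fellow member FABP4 (r = 0.795) and HPD (r = 0.782), all less close than the neighbours of CHIT1. Pairs from 1 library share its depth, and all but MMP19, FABP4 and HPD were markers used to name the macrophages.

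The groups were then compared in macrophage-like cells, summed per library, to ask whether any of the 8 genes differed between asthma and control. The quasi-likelihood test of edgeR, adjusted after Benjamini and Hochberg, called 0 of 10525 genes (0.0%) at an adjusted p under 0.05, while 589 had an unadjusted p under 0.05 and DESeq2 called 42. None of the 8 genes was therefore called. In the comparisons below, the values of a gene per library are normalized CPM (CPM after the library scaling of edgeR), levels of sub-clusters and of marker lists are CPM without that scaling, and each fold change is log2 of asthma over control with its standard error.

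CHIT1 stood at 2897, 588 and 1579 normalized CPM in controls 1, 2 and 3 and at 1498, 538 and 2368 in asthma 8, 10 and 11, with a log2 fold change of -0.20 ± 0.65 (edgeR adjusted p = 0.979). Groups overlapped widely and the sign depended on single animals, with log2 fold changes from -0.73 to 0.44 when 1 library was left out. CHI3L1 was 314, 157 and 250 in the controls and 203, 118 and 178 in asthma, a log2 fold change of -0.53 ± 0.29 (edgeR adjusted p = 0.888). SCD was 469, 675 and 776 in the controls and 453, 78.0 and 703 in asthma, a log2 fold change of -0.64 ± 0.65 (edgeR adjusted p = 0.915), with asthma 10 alone far below the rest. Without asthma 10 it was -0.14 and without asthma 11 it was -1.27.

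PPARG was the only one of the 8 whose groups did not overlap in macrophage-like cells on normalized CPM. Without the library scaling its groups overlapped, at 317 ± 21.8 CPM in the controls and 265 ± 60.1 CPM in asthma (SD, n = 3 each). It stood at 349, 324 and 316 normalized CPM in the controls and 314, 220 and 231 in asthma 8, 10 and 11, a log2 fold change of -0.37 ± 0.17 (edgeR adjusted p = 0.888), and 5.46% of all genes tested were likewise lower in each asthma library than in every control library. Asthma 8 lay just under the lowest control, and the lower libraries, asthma 10 and 11, were those with the fewest alveolar and the most interstitial cells among their macrophages. PPARG was lower in interstitial than in alveolar cells, and within alveolar cells alone its log2 fold change was -0.14. The part of the makeup in the value over all macrophage-like cells was not tested. FABP4 had a log2 fold change of 0.57 ± 0.51 (edgeR adjusted p = 0.908), LPL of 0.65 ± 0.68 (adjusted p = 0.915), APOE of 0.03 ± 0.27 (adjusted p = 0.993) and ABCG1 of 0.01 ± 0.23 (adjusted p = 0.999), all with overlapping groups. Without asthma 8 the value of FABP4 was -0.18 and that of LPL was 0.072, and without asthma 10 they were 0.94 and 1.16.

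In alveolar macrophage-like cells alone the picture was similar, although their sub-clusters differed by library. The largest sub-cluster gave 310 of the 385 alveolar cells of asthma 8, and the interferon-gene one gave 292 of 301 in asthma 10. The sub-cluster high in CHIT1 gave 137 of 158 in asthma 11, and another gave 327 of 649 in control 1. The part of this makeup in the values below was not tested. edgeR called 0 of 9721 genes (0.0%), with 476 at an unadjusted p under 0.05, and DESeq2 called 28. PPARG again did not overlap on this scale, with 407, 391 and 388 normalized CPM in the controls and 354, 362 and 358 in asthma, a log2 fold change of -0.14 ± 0.13 (edgeR adjusted p = 0.969), where 4.71% of genes were lower without overlap. A further 5.03% of genes were higher without overlap. Without the library scaling the PPARG groups overlapped, at 382 ± 23.2 CPM in the controls and 369 ± 17.3 CPM in asthma (SD, n = 3 each). FABP4 stood at 1923, 1406 and 1034 in the controls and 3896, 1597 and 2186 in asthma 8, 10 and 11, a log2 fold change of 0.82 ± 0.36 (edgeR adjusted p = 0.969). Asthma 8 was the highest, control 1 exceeded asthma 10, and the fold change was 0.38 without asthma 8. CHIT1 was 2826, 711 and 2062 in the controls and 1723, 808 and 3391 in asthma, a log2 fold change of 0.08 ± 0.60 (edgeR adjusted p = 0.998), opposite in sign to that over all macrophage-like cells. LPL was 97.5, 57.0 and 83.2 in the controls and 210, 19.5 and 151 in asthma, so that 2 asthma libraries were above and 1 was below every control.

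Interstitial macrophage-like cells were few (31 to 278 per library), and 4 of the 8 genes passed the filter on low counts. Their sub-clusters differed by library. One of 67 cells, 50 of them in asthma 11, held 426 CPM of CHIT1, and another gave 249 of the 278 cells of asthma 10. Median depth was 3960 UMIs per cell in asthma 11 and 7234 to 14893 in the other libraries. The part of makeup and depth in the values below was not tested. edgeR called 0 of 5581 genes (0.0%), with 247 at an unadjusted p under 0.05, and DESeq2 called 0. CHIT1 was 61.5, 2.39 and 32.1 normalized CPM in the controls and 15.1, 68.9 and 545 in asthma 8, 10 and 11, a log2 fold change of 2.67 ± 1.08 (edgeR adjusted p = 0.982). The value was 0.61 without asthma 11, 0.76 with doublets removed, 0.51 at a mitochondrial maximum of 10% and -1.11 with cells kept from 200 genes upward and no maximum, a setting that changes both limits. The adjusted p over the alternatives ran from 1.41e-18, without the count filter, to 0.9998. FABP4 (log2 fold change 0.43), PPARG (0.19) and APOE (0.04) also had overlapping groups. The change of CHIT1 in alveolar minus that in interstitial cells was -2.15 on the log2 scale in a fit of both subtypes, with an adjusted p of 0.982 in edgeR, and none of the 8 genes passed that test.

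**Figure D3:**
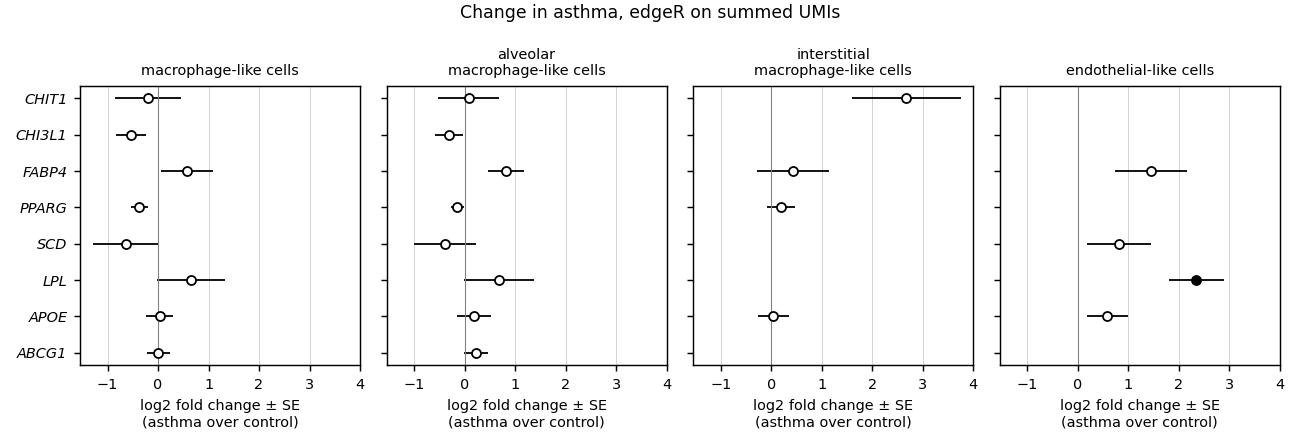
Log2 fold change of asthma over control with its standard error from edgeR, for each of the 8 genes that passed the count filter, in 4 cell populations (3 libraries per group). The single filled point, a call at an adjusted p under 0.05, is LPL in endothelial-like cells at 2.35, and the open points were not called.

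Neighbouring genes of the same pathways were read from 6 lists without the 8 genes. In macrophage-like cells none of the lists held a called gene, and the median log2 fold change over all genes was 0.0037. The chitinase family (3 tested) had a median of -0.59, fatty acid and sterol synthesis (13 tested, 1 of them with a positive value) of -0.18, and cholesterol efflux and transport (8 tested) of 0.20. Uptake of fatty acids and lipoproteins (12 tested), droplet storage and lipolysis (8 tested) and PPARG partners and regulators (6 tested) had medians of -0.03, -0.07 and -0.06. In alveolar cells the synthesis list (12 tested, 2 with a positive value) had a median of -0.53, the chitinase family -0.53, uptake (11 tested) -0.14, storage -0.07, partners (5 tested) -0.06 and efflux 0.13.

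Some listed genes had groups that did not overlap in macrophage-like cells (5.46% of all genes were lower without overlap), among them CHI3L2, a chitinase-like gene without catalytic activity. CHI3L2 was 9.27, 14.4 and 49.9 normalized CPM in the controls and 2.04, 4.23 and 3.14 in asthma, a log2 fold change of -2.93 ± 0.67 (edgeR adjusted p = 0.727, DESeq2 adjusted p = 0.000939, range over the alternatives 0.000939 to 0.997). All 3 asthma libraries were under the lowest control, at low counts, and the log2 fold change was -1.89 without control 3. CD36, the scavenger receptor for oxidised lipoprotein and fatty acid, was 70.2, 45.9 and 58.9 in the controls and 36.1, 25.2 and 39.1 in asthma, a log2 fold change of -0.81 ± 0.22 (edgeR adjusted p = 0.758). ABHD5, the activator of triglyceride lipase, was 139, 115 and 162 in the controls and 106, 66.6 and 76.3 in asthma, a log2 fold change of -0.74 (edgeR adjusted p = 0.784). NR1H3, the sterol receptor LXR-alpha, and NPC1, which moves cholesterol out of lysosomes, were higher without overlap, with log2 fold changes of 0.38 and 0.33, in a background of 5.72% of genes. CEBPB, a transcription factor upstream of PPARG in fat cells, was lower without overlap at -0.34. In alveolar cells CHI3L2 (log2 fold change -2.58, and -1.39 without control 3), CD36 (-0.70) and ABHD5 (-0.51) were again lower without overlap as were 4.71% of genes, and CPT1A (0.53) and MGLL (0.30) were higher without overlap as were 5.03% of genes, all with edgeR adjusted p-values of 0.917 to 0.969. In interstitial cells the acyl-CoA synthetase ACSL1 (0.78) and PPARD (0.60) were higher without overlap (5.07% of genes), and the sterol synthesis genes IDI1 (-1.01) and MSMO1 (-0.94) and the droplet coat gene PLIN3 (-0.68) were lower without overlap (4.95% of genes), with an edgeR adjusted p of 0.982 for each.

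LPL in endothelial-like cells was the 1 call among the 8 genes. In this tissue LPL acts on the capillary wall, where GPIHBP1 holds it. LPL was 29.1, 47.6 and 67.3 normalized CPM in controls 1, 2 and 3 and 164, 129 and 486 in asthma 8, 10 and 11, so that the lowest asthma library was above the highest control. It rose by a log2 fold change of 2.35 ± 0.54 (edgeR adjusted p = 0.0392). In this class 377 of 7807 genes (4.83%) were called, 169 of them (2.16%) higher in asthma, and 14.1% of genes were higher without overlap. The number of calls fell to 52 without control 1, 40 without control 3, 16 without asthma 10 and 33 without asthma 11. The adjusted p over the alternatives ran from 1.2e-05 to 0.352, and the call was lost without control 1 (0.128), control 2 (0.0899), control 3 (0.0992), asthma 10 (0.0728) or asthma 11 (0.0619), with log2 fold changes of 1.52 to 2.80.

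The endothelial-like cells differed in number and kind between the groups, with 45, 35 and 101 cells in the controls and 247, 233 and 326 in asthma 8, 10 and 11. The median depth was 5569 to 7011 UMIs per cell in the controls and 2462.5 to 3511 in asthma, and its part in the result was not tested. A sub-cluster led by SEMA3G, ENPP2, KIT, CD36 and GPIHBP1 held 4, 0 and 3 cells of the controls and 70, 63 and 120 cells of asthma, and its LPL level was 778, 562 and 715 CPM in asthma 8, 10 and 11. With this sub-cluster left out, LPL had a log2 fold change of 2.13 and an adjusted p of 0.352 in edgeR. A sub-cluster led by SELE (63 cells, 59 of them in asthma 11) held 716 CPM of LPL over all its cells. In the sub-cluster led by TAC1 and ACKR1, which every library filled with at least 10 cells, LPL was 0, 10.8 and 0 CPM in the controls and 17.3, 6.01 and 14.0 CPM in asthma. Sub-cluster makeup and the level per cell cannot be told apart in the summed value. The 10 macrophage markers summed to 69.2, 90.5 and 18.9 CPM in the endothelial-like cells of the controls and 88.2, 82.7 and 78.1 CPM in those of asthma, with 4, 6 and 5 markers at 0 in the controls and 0, 3 and 1 in asthma. Their top gene was MRC1, CD68 or CCL18, and their part in the result was not tested.

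FABP4 in endothelial-like cells was 7.27, 5.29 and 16.8 normalized CPM in the controls and 18.4, 66.2 and 15.7 in asthma, a log2 fold change of 1.45 ± 0.72 (edgeR adjusted p = 0.273). It was 0.52 without asthma 10, 2.32 without control 3, 3.19 at a mitochondrial maximum of 10% and 0.66 with cells kept from 200 genes upward and no maximum. A sub-cluster of 41 cells led by NTS and RELN held 76 of the 112 FABP4 UMIs of the class, 58 of them in 3 cells of asthma 10. In T and NK-like cells, the background for free RNA, FABP4 was 12.7, 3.82 and 2.04 normalized CPM in the controls and 18.1, 9.12 and 12.8 in asthma 8, 10 and 11, a log2 fold change of 1.14 ± 0.58 (edgeR adjusted p = 0.765), and its part in the endothelial value was not tested. SCD (log2 fold change 0.82) and APOE (0.59) had adjusted p-values of 0.501 and 0.438 in edgeR, and the other genes did not pass the filter. Of 11 tested genes of fatty acid and sterol synthesis, 2 were called as higher (2.16% of all genes) and 9 had a positive value, with a median of 0.66 against 0.019 over all genes. FADS2, FADS1 and SQLE (log2 fold change 1.845, edgeR adjusted p = 0.0806) were among the 5 of this list that were higher without overlap, as were 14.1% of all genes. FADS2, the delta-6 desaturase, was 10.9, 5.29 and 33.7 in the controls and 60.1, 128 and 71.4 in asthma, and rose by a log2 fold change of 2.0 ± 0.48 (edgeR adjusted p = 0.0474). FADS1, the delta-5 desaturase, was 21.8, 15.9 and 10.7 in the controls and 51.3, 43.1 and 33.3 in asthma, and rose by 1.52 ± 0.37 (edgeR adjusted p = 0.0477). The control values of both desaturases rest on few molecules, near the floor. The endothelial-like cells of controls 1, 2 and 3 held only 303653, 198927 and 741740 UMIs over all genes. The FADS2 call was lost without control 1 (0.133), control 2 (0.0865), control 3 (0.0603), asthma 10 (0.143), asthma 11 (0.0792) or the GPIHBP1 sub-cluster (0.0733), while its log2 fold change stayed at 1.62 to 3.30 with a library left out and was 2.17 without that sub-cluster. The FADS1 call was lost whichever library was left out (0.0697, 0.0753 and 0.232 without controls 1, 2 and 3, 0.103, 0.137 and 0.0717 without asthma 8, 10 and 11), by DESeq2 (0.105) and at a mitochondrial maximum of 10% (0.0553), with log2 fold changes of 1.13 to 1.80 with a library left out, 1.48 by DESeq2 and 1.79 at that maximum. Without the GPIHBP1 sub-cluster FADS1 kept its call, at a log2 fold change of 1.90 (edgeR adjusted p = 0.029). Uptake genes (7 tested, median 0.46), storage genes (6, -0.15) and efflux genes (7, -0.32) held no called gene, nor did the chitinase family (2 tested, median 0.75) or the PPARG partners (1 tested, -0.05). Of these, CTBS, which degrades chitobiose (log2 fold change 1.59), the lipoprotein receptor SCARB1 (1.05) and the lysosomal lipase LIPA (1.06) were higher without overlap, as were 14.1% of genes, with edgeR adjusted p-values of 0.154, 0.102 and 0.158. The sterol receptor NR1H3 (log2 fold change -1.66), the cholesterol exporter ABCA1 (-1.23) and the monoglyceride lipase MGLL (-1.79) were among the listed genes lower without overlap, as were 12.2% of genes, with edgeR adjusted p-values of 0.0909, 0.160 and 0.112.

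APOE and LPL in fibroblast and muscle-like cells had groups that did not overlap but were not called by edgeR. APOE stood at 1695, 3470 and 1196 normalized CPM in the controls and 6509, 6191 and 4217 in asthma 8, 10 and 11, a log2 fold change of 1.41 ± 0.41 (edgeR adjusted p = 0.236, DESeq2 adjusted p = 0.0169, range over the alternatives 0.00499 to 0.510). LPL stood at 40.0, 100 and 25 in the controls and 126, 115 and 212 in asthma, a log2 fold change of 1.54 ± 0.45 (edgeR adjusted p = 0.239, range over the alternatives 2.15e-06 to 0.505). In this class 25 of 7304 genes (0.342%) were called, 0.178% of all genes as higher in asthma, and 8.45% were higher without overlap. The number of calls was 0 without control 1, control 3 or asthma 10, 16 without control 2, 13 without asthma 11 and 97 without asthma 8. Kinds of cell differed here too. A sub-cluster led by CCL11 and INMT gave 5, 8 and 17 cells of the controls and 27, 37 and 161 cells of asthma, and its APOE level was 6457 CPM in control 3, against 10591, 10493 and 6754 CPM in asthma 8, 10 and 11. One led by RBP4 and MYOC gave 31, 45 and 130 cells of the controls and 17, 17 and 3 cells of asthma, with APOE at 231, 608 and 368 CPM in the controls and 547 and 1232 CPM in asthma 8 and 10. For LPL, a sub-cluster led by COX4I2 (158 cells, 124 of them in asthma 11) held 346 UMIs at 971 CPM, and it had 1, 0 and 1 cells in the controls and 7 and 25 in asthma 8 and 10. The log2 fold change of LPL was 1.21 without asthma 11, 2.31 without control 2 and 1.1 without control 3. Macrophage markers in the class summed to 89.8, 31.4 and 23.8 CPM in the controls and 55.6, 44.1 and 59.6 CPM in asthma.

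**Figure D4:**
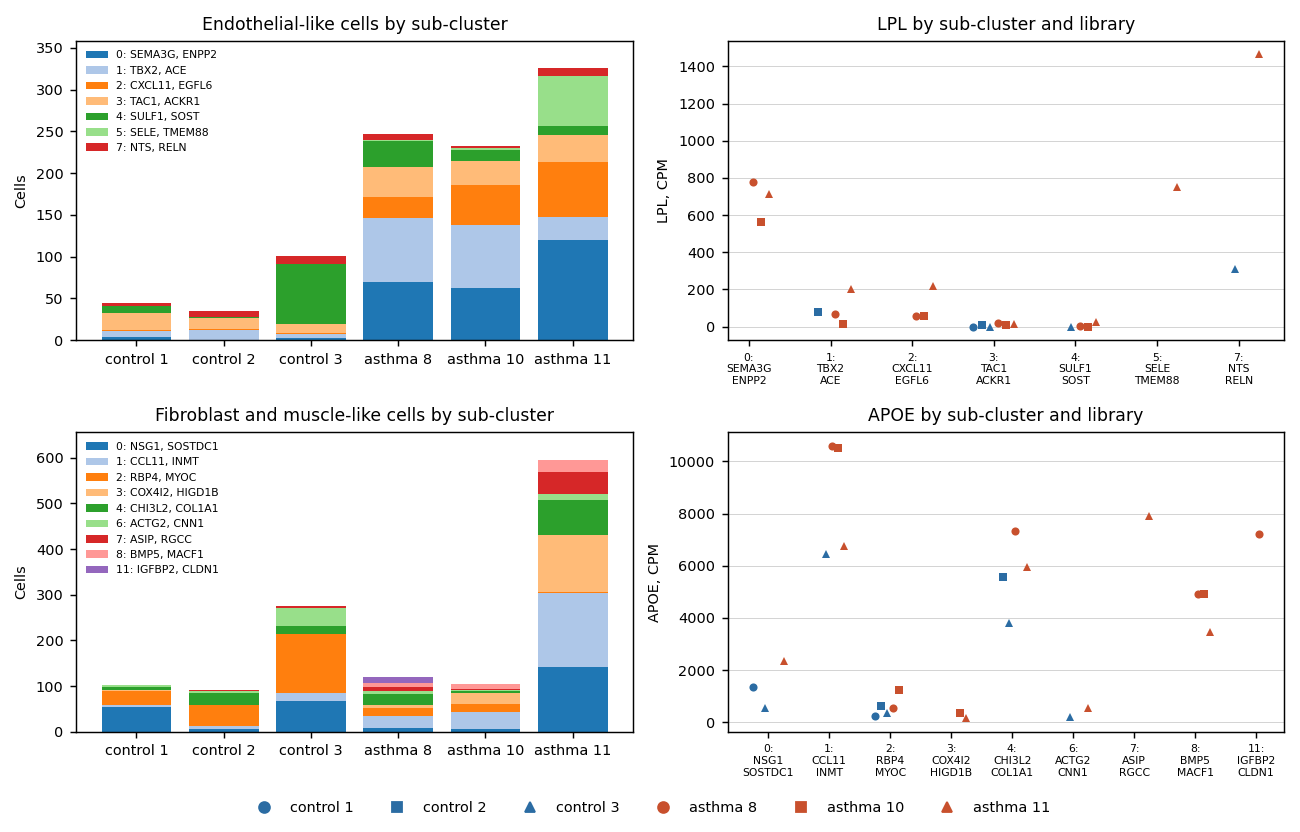
Left, number of endothelial-like (top) and fibroblast and muscle-like (bottom) cells per library, stacked by sub-cluster and labelled by leading genes; right, LPL and APOE in CPM per sub-cluster and library, drawn where a library has at least 10 cells (control blue, asthma orange). The SEMA3G sub-cluster has LPL at 562 to 778 CPM in the asthma libraries and no control library with enough cells, and the CCL11 sub-cluster carries APOE at 6457 to 10591 CPM.

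In epithelial-like cells FABP4 was 10.1, 3.92 and 1.29 normalized CPM in the controls and 21.7, 150 and 38.4 in asthma 8, 10 and 11, a log2 fold change of 3.67 ± 0.95 (edgeR adjusted p = 0.651, DESeq2 adjusted p = 0.0318, range over the alternatives 0.0318 to 0.979). Each asthma library was above every control, as were 7.32% of genes, and asthma 10 was the highest, without which the log2 fold change was 2.45; it was 5.29 without control 1. edgeR called 0 of 9039 genes (0.0%) there, with 660 at an unadjusted p under 0.05 and 4 called by DESeq2. Control 2 held only 32 epithelial-like cells, with 269500 UMIs in all. The background for free RNA, in T and NK-like cells, had FABP4 at 12.7, 3.82 and 2.04 normalized CPM in the controls. It was 18.1, 9.12 and 12.8 in asthma 8, 10 and 11, so the epithelial control values lay near this background. The part of free RNA in the epithelial values was not tested. In whole libraries the 8 genes were not called and their groups overlapped, with log2 fold changes from -0.79 for SCD (edgeR adjusted p = 0.560) to 1.06 for LPL (edgeR adjusted p = 0.576), while 12 of 14306 genes (0.0839%) were called and 19.3% did not overlap. That count was 0 without control 1 or asthma 10, and 5, 5 and 6 without control 2, asthma 8 and asthma 11. FADS2 and FADS1 were higher without overlap also in whole libraries, with log2 fold changes of 1.67 and 1.11 (edgeR adjusted p = 0.177 for both, DESeq2 adjusted p = 0.000913 and 0.00106, ranges over the alternatives up to 0.440 and 0.421). CHI3L2 (-1.04), ABHD5 (-0.69), ACLY of the same synthesis list (-0.17) and NR1H2 (-0.13) were lower without overlap there, with edgeR adjusted p-values of 0.246, 0.384, 0.521 and 0.622. Macrophage-like cells made up 22.8%, 9.19% and 9.48% of kept cells in controls 1, 2 and 3 and 13.4%, 18.6% and 9.71% in asthma 8, 10 and 11, with overlapping groups. A whole-library level alone does not separate the number of macrophages from their RNA per cell.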

How the data were processed

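The deposited files hold UMI counts per gene and cell barcode for each library, made by the authors with Cell Ranger on the macFas6 genome; the submitters' processing notes give version 2.1.1 and the matrix header 4.0.0, and the study's methods name a version that differs from both. Libraries were 10x 3′ (V3 beads) from dissociated lung. Kept cells had over 500 and under 5000 genes, 500 UMIs or more, and no more than 25% of them from 37 mitochondrial genes; doublets stayed in the reported values. Counts were scaled to 10000 per cell, and 2000 variable genes without the 10 genes of interest, 10 components, 20 neighbours and Leiden resolution 0.8 gave clusters (scanpy 1.11.5, leidenalg 0.10.2). A cluster was named when at least 3 markers of a type had a log2 fold of at least 1 in at least 10% of cells, and called mixed with at least 4 markers of another type. Counts were summed per class and library with at least 10 cells and tested with edgeR 4.0.16 (quasi-likelihood, TMM, filterByExpr, R 4.3.3) with calls at an adjusted p (Benjamini-Hochberg) below 0.05 where the log2 fold change also passed 0.25 in size. The test was tried on simulated counts first.

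Alternatives were DESeq2 1.42.0, no count filter, other size factors, each library left out, a mitochondrial maximum of 10%, a minimum of 200 genes with no maximum, 793 Scrublet doublets removed, resolution 1.6, the 10 genes kept among the variable genes, and the Wilcoxon test across cells that the study used. The comparisons in fibroblast and muscle-, epithelial- and 5 other classes, the subtype interaction and the fit without the GPIHBP1 sub-cluster were added after the data were seen. The genes, lists and tests were chosen with earlier results of these data known. Named genes were the 8 themselves, the 3 most similar genes of a few of them, and some list genes. From each list these were the called genes and those with the largest log2 fold changes in either direction among the genes without overlap. Other list genes without overlap were not named. Columns of unknown samples numbered 0. With 3 animals per group, the edgeR p-values set a difference against a spread between libraries that is estimated with help from all genes. Each animal gave a single suspension and library, so that spread cannot separate the animal from its suspension, cell makeup or depth. Depth limits the sparse genes ABCG1 and LPL most. FABP5 and PLIN2 were not analysed here.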

Additional observations from a re-analysis of the deposited data

How the results depend on the processing

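No paired analysis was possible because the control and asthma monkeys share no replicate numbers. Of 911 values of single genes under the alternatives, 833 kept their direction and side of the threshold, 37 reversed and 41 crossed the threshold. The number of called genes by DESeq2 was 42 in macrophage-like, 28 in alveolar, 1 in monocyte-like, 2 in granulocyte-like, 79 in T and NK-like, 3 in B-like, 95 in fibroblast and muscle-like, 4 in mesothelial-like and 4 in epithelial-like cells and 648 in whole libraries. Without the count filter it was 1, 8, 51, 34, 74, 94, 468, 70, 2 and 45 in the same order, 64 in interstitial and 915 in endothelial-like cells. The Wilcoxon test across cells called 259 of 7948 genes in macrophage-like cells, where the cell and not the animal is the unit, CHIT1, CHI3L1 and SCD among them. Interstitial cells had 1 call under the mitochondrial maximum of 10%, the minimum of 200 genes, doublet removal, resolution 1.6 or the 10 genes kept; endothelial-like cells had 86 without the GPIHBP1 sub-cluster; whole libraries had 7 with the minimum of 200 genes; fibroblast and muscle-like cells had 50 without doublets; mesothelial-like cells had 0 with the mitochondrial maximum of 10% or the minimum of 200 genes. With 1 library left out, calls ranged from 0 to 1 in macrophage-like and alveolar, 16 to 378 in endothelial-like, 0 to 2 in monocyte-like, 0 to 3 in T and NK-like, 0 to 6 in B-like, 0 to 97 in fibroblast and muscle-like and 0 to 3 in mesothelial-like cells and 0 to 11 in whole libraries. Log2 fold changes that reversed were, for macrophage-like ABCG1, -0.012 without doublets; for alveolar CHIT1, -0.028 at 10% mitochondrial RNA; for alveolar SCD and APOE, 0.011 and -0.26 at resolution 1.6; for interstitial CHIT1, FABP4 and APOE, -1.11, -0.14 and -0.0096 with the minimum of 200 genes; for interstitial FABP4, -0.11 at resolution 1.6 and -0.054 with the 10 genes kept; for interstitial APOE, -0.038 with the 10 genes kept; and for APOE in whole libraries, -0.017 with the minimum of 200 genes. Leaving out 1 library gave, in macrophage-like cells, -0.73 to 0.44 for CHIT1, -0.18 to 0.94 for FABP4, -0.25 to 0.24 for APOE and -0.15 to 0.24 for ABCG1; in alveolar cells -0.56 to 0.51 for CHIT1, -1.22 to 0.084 for SCD, -0.21 to 0.45 for APOE and -0.0496 to 0.40 for ABCG1; in interstitial cells -0.26 to 2.04 for FABP4 and -0.19 to 0.38 for APOE; and in whole libraries -1.11 to 0.72 for CHIT1, -0.94 to 0.17 for CHI3L1, -0.52 to 1.22 for FABP4, -0.70 to 0.051 for PPARG, -0.50 to 0.39 for APOE and -0.32 to 0.19 for ABCG1. PPARG stayed lower in macrophage-like cells, at -0.55 to -0.24, and in alveolar cells, at -0.19 to -0.11. The cause of these shifts was not tested. The share of LPL UMIs in macrophage-like cells ranged from 44.9% to 51.4% and that of CHIT1 from 87.1% to 93.7% over the cell settings.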

Other observations

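Of the chitinase family beyond CHIT1 and CHI3L1, CHIA, the acidic mammalian chitinase of airway and stomach epithelium, which has 2 entries, was found only in epithelial-like cells among the 9 classes with levels for this family, at a mean of 2.03 CPM and at most 6.98 CPM in a library. CHI3L2 was highest in fibroblast and muscle-like cells, at 48.5 ± 43.4 CPM (SD, n = 6). CHID1, a chitinase domain gene, held 49.8 ± 7.08 CPM in macrophage-like cells and 75.7 ± 32.6 CPM in fibroblast and muscle-like cells.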
